A study of Mus musculus with 3 samples.

Results

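The cells described here were 188 ependymal cells among 13964 cells with at least 200 detected genes from the mouse medial vestibular nucleus (MVN), a brainstem nucleus that lies under the floor of the fourth ventricle and receives input from the balance organs of the inner ear. A cell was taken as ependymal when at least 3 of 6 genes of ciliated cells (Ccdc153, Tmem212, Foxj1, Dynlrb2, Rsph1 and Enkur) had at least 1 unique molecular identifier (UMI, the tag that marks a captured transcript) and when Ttr, the transthyretin gene of the choroid plexus, held under 5% of the cell's UMIs. The control library held 119 of these cells, the library of the ipsilateral MVN after unilateral labyrinthectomy (ULI) held 43, and the library of the contralateral MVN (ULC) held 26. The cells were thus chosen by measured values, and the levels of the 6 markers and of Ttr, and the distance of the cells from other cells, are given below as a description.

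The mice were C57BL/6 by the labels and C57BL/6J by the methods, and were operated on at postnatal day 20 in the right ear, and tissue was taken 1 day later. In unilateral labyrinthectomy (UL) the sensory organs of the inner ear were destroyed on that side, while in control mice the tympanic bulla was opened and the labyrinth was left in place. The cells came from 10 control mice and 11 UL mice, whose cells were combined for analysis, and how the mice were divided over the libraries was not given in the sources used here. The treatment label names labyrinthectomy for every library, and the control was recognised from its source name and the methods. With 1 library per group no difference had a replicate check, single cells were not treated as replicates, no test was run, and every interval covers counting error only.

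Ependymal cells line the ventricles as a sheet, and most of them carry tufts of motile cilia that move cerebrospinal fluid. The shaft of such a cilium, the axoneme, is a ring of microtubule doublets around a central pair. Dynein arms slide the doublets, radial spokes and the central pair regulate the beat, and intraflagellar transport carries building blocks to the tip. Foxj1, a forkhead transcription factor, and factors of the RFX family switch on the genes of motile cilia. Choroid plexus epithelium, which makes cerebrospinal fluid, is a neighbouring ciliated tissue and is told apart by its very high Ttr.

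The table held 57216827 UMIs over 28676 genes, with 27019650 UMIs in the control library, 17428194 in ULI and 12768983 in ULC. The median depth over all cells was 3177 UMIs in the control library, 2100 in ULI and 931 in ULC, and cells of the choroid plexus gate made up 0.868%, 4.43% and 16.8% of them. The libraries therefore differed in depth and in the tissue they held, and the part of either in the results below was not tested. Cell names were running numbers, so the names that libraries had in common, 4816 for ULI and control and 4998 for ULI and ULC, carried no barcode sequence and could not be read as shared cells. No doublet caller was run.

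Ependymal cells were deeper than the average cell of their library. Their median depth was 6436 UMIs and 2426 genes in the control library, 2629 UMIs and 1140 genes in ULI, and 3901.5 UMIs and 1669 genes in ULC. The median share of mitochondrial UMIs was 6.24%, 5.90% and 4.94% in that order. In sum the cells held 850561 UMIs in the control library, 162372 in ULI and 123110 in ULC, so the control values carried the least counting error.

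The marker levels are given as counts of the summed ependymal cells scaled to a library total of 1e6 UMIs (CPM), with exact Poisson intervals at 95%. Tmem212, a membrane protein gene of ciliated cells, stood at 2204 CPM (2106 to 2307) in control, 1712 CPM (1517 to 1926) in ULI and 1779 CPM (1551 to 2031) in ULC, against 1.65, 1.11 and 0.888 CPM in all other cells of the same libraries. Ccdc153, a coiled-coil gene of the cilium, stood at 1337 CPM (1260 to 1417), 1361 CPM (1188 to 1553) and 1032 CPM (860 to 1227). The Enkur level, for a protein of the doublet microtubules, was 1223 CPM (1150 to 1299), 1490 CPM (1309 to 1690) and 1202 CPM (1016 to 1412). The ULI and ULC intervals of each of these 3 markers overlapped.

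Dynlrb2, a dynein light chain gene, gave 898 CPM (836 to 964) in control, 622 CPM (507 to 756) in ULI and 504 CPM (386 to 646) in ULC. Rsph1, a radial spoke head gene, gave 762 CPM (704 to 823), 671 CPM (551 to 810) and 812 CPM (661 to 988). Foxj1 gave 764 CPM (707 to 825), 277 CPM (202 to 371) and 1503 CPM (1294 to 1736). The 3 Foxj1 intervals did not overlap, and in all other cells Foxj1 moved in the same order, at 6.58 CPM in control, 3.74 CPM in ULI and 50 CPM in ULC. In the GENCODE annotation of build mm10, Foxj1 lies on chromosome 11 from 116330704 to 116335399 (minus strand), Tmem212 on chromosome 3 from 27866066 to 27896368 (minus strand), Ccdc153 on chromosome 9 from 44240676 to 44247306 (plus strand) and Rsph1 on chromosome 17 from 31255019 to 31277383 (minus strand), and the counts were per gene. Cells with at least 1000 UMIs were thinned to 1000 UMIs, and shallower cells were left out. Tmem212 then had a UMI in 81.2%, 73.5% and 81.0% of the ependymal cells and in 0.18%, 0.0294% and 0.139% of the other cells. Tmem212 is a marker of the rule, so this contrast is a description. The other cells include those that the Ttr limit kept out.

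At the edge of the rule, 8 control, 15 ULI and 6 ULC cells had exactly 3 markers, with a median of 1579, 1897 and 698.5 UMIs, and 15, 7 and 11 further cells had 2 markers and stayed out. The share of ependymal cells with all 6 markers was 67.2%, 23.3% and 42.3%, and these cells were the deepest, at a median of 7106, 6251 and 6380 UMIs. The Ttr limit kept out 22 control, 4 ULI and 29 ULC cells that had 3 markers. Their lowest Ttr share was 5.87%, 6.43% and 8.24%, while the highest share inside the limit was 3.82%, 2.20% and 2.90%. The gap leaves no cell on the threshold itself, and 21, 4 and 29 of the cells kept out also met the choroid plexus gate.

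The genes named next were picked by enrichment in these same cells, so their levels describe the cells and do not check the label ependymal. The 20 genes with the highest smallest enrichment over all other cells across the 3 libraries included Tmem212 and Ccdc153 and, beyond them, Dnah12, a dynein heavy chain gene, Hydin, a central pair gene, and Lrrc6, a dynein assembly gene. Hydin stood at 245 CPM (212 to 280) in control, 172 CPM (115 to 249) in ULI and 252 CPM (171 to 357) in ULC, against 0.962, 0.759 and 1.05 CPM in the other cells. Anxa8, an annexin gene, stood at 140, 179 and 171 CPM against 0.154, 0.0584 and 0 CPM in the other cells. Iqca, Cdhr3 and Dmkn belonged to the same group, with Iqca at 568, 573 and 642 CPM, and Fam183b, a further gene of the group, is taken up with the cilium genes.

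Genes of the ependymal surface were abundant. Dbi, which codes for the diazepam binding inhibitor, an acyl-CoA binding protein, stood at 15932 CPM (15665 to 16202) in control, 15471 CPM (14872 to 16088) in ULI and 8878 CPM (8360 to 9421) in ULC, against 812, 856 and 533 CPM in the other cells. Cd24a, a surface glycoprotein gene used to sort ependymal cells, stood at 2390 CPM (2287 to 2496), 3763 CPM (3470 to 4074) and 3363 CPM (3047 to 3703). Nnat, the neuronatin gene, stood at 3312 CPM (3191 to 3437), 3732 CPM (3441 to 4042) and 1925 CPM (1688 to 2186). Dbi and Nnat were thus lowest in ULC, and Cd24a was lowest in control.

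Some cells stood apart. A control cell of 34524 UMIs had 3 markers and only 0.0840% of its UMIs from motile cilium genes, and a control cell of 25394 UMIs had all 6 markers, 0.626% from motile cilium genes and 13.2% from oligodendrocyte markers. In all, 49 control, 11 ULI and 6 ULC ependymal cells also held 3 astrocyte markers, a class that shares genes with ependyma, and 30, 3 and 1 held 3 oligodendrocyte markers. The choroid plexus markers reached 3 in 9, 1 and 3 cells, and no cell met the neuron gate. Cells with over 1% of their UMIs from the markers of another class numbered 13, 3 and 3 in the order control, ULI and ULC, and held 20.6%, 11.1% and 18.9% of the ependymal UMIs. Counts without these cells, a setting chosen after the data were seen, are given below for the lists of motile cilium, transport within cilia, surface, fluid transport, response, respiratory chain and oligodendrocyte genes, and were not computed for every list.

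Ependymal cells made up 2.58% (2.14 to 3.08) of the control cells, 0.893% (0.647 to 1.20) of the ULI cells and 0.572% (0.374 to 0.837) of the ULC cells, with exact binomial intervals at 95%. The control interval lay above both UL intervals, and the UL intervals overlapped. With choroid plexus cells left out of the denominator the shares were 2.61% (2.16 to 3.11), 0.935% (0.677 to 1.26) and 0.688% (0.450 to 1.01). Cells with at least 1000 UMIs were also thinned to 1000 UMIs before the markers were read, a setting chosen after the data were seen. Shallower cells were left out of this denominator. Of the cells outside the ependymal group, 3893 of 4488 in control, 3403 of 4770 in ULI and 2159 of 4518 in ULC were that deep. The shares were then 2.32% (1.88 to 2.83), 0.727% (0.471 to 1.07) and 0.826% (0.490 to 1.30). The order of ULI and ULC changed with that setting, whereas the control share stayed highest in each of the 3 readings. Without cells that held 3 markers of another class the shares were 1.19% in control and 0.603% in ULI. Choroid plexus cells, of the neighbouring tissue, moved the other way, at 0.868%, 4.43% and 16.8%, and the part of what each dissection took in was not tested.

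**Figure D1:**
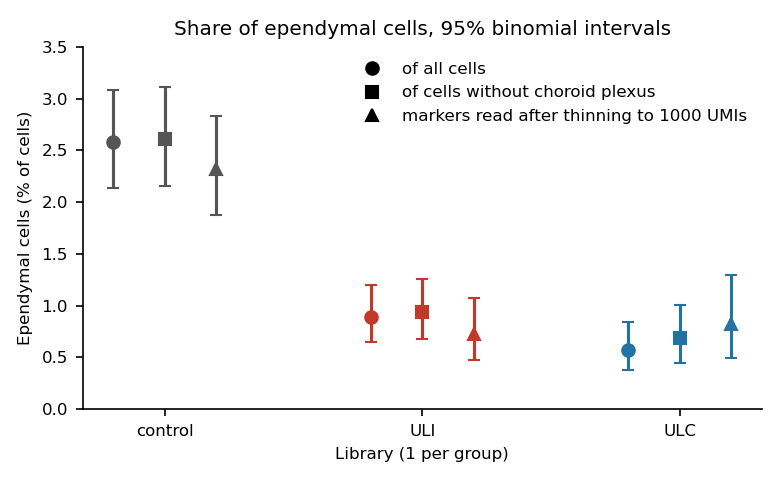
Share of ependymal cells in each library, in percent of cells, with the points showing the share of all cells (circle), of cells without choroid plexus (square) and with markers read after thinning (triangle) and the bars exact 95% binomial intervals. The control library reads between 2.32% and 2.61%, and the UL libraries between 0.572% and 0.935%.

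The motile cilium list held 88 genes of dynein arms, assembly factors, radial spokes, central pair, doublets and ciliary tip, without the 6 markers. Their sum was 18742 CPM (18452 to 19035) in control, 17361 CPM (16726 to 18014) in ULI and 19332 CPM (18563 to 20125) in ULC, which was 38.2, 47.4 and 27.2 times the level in all other cells of the same library. The log2 ratio of the sum was -0.11 (-0.17 to -0.05) for ULI against control and 0.04 (-0.02 to 0.11) for ULC against control. In ULC this depended on the rule for cells. With at least 2 markers in place of 3 the ULC ratio was -0.40, with 7 genes higher and 12 lower, and with no limit on Ttr, which admits choroid plexus cells, it was -1.28, with 3 higher and 54 lower of 84. The ratio of the sum in ULI against ULC was -0.16 with the rule as stated, 0.46 with at least 2 markers (13 higher and 8 lower) and 1.17 with no limit on Ttr.

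Cell by cell, the median ependymal cell gave 2.08% of its UMIs to motile cilium genes in control (quartiles 1.74% and 2.36%), 1.76% in ULI (1.52% and 2.16%) and 1.97% in ULC (1.72% and 2.40%). In choroid plexus cells the median was 0.407%, 0.169% and 0.155%, and in astrocyte-gated cells it was 0. Enrichment was taken only over motile cilium genes with at least 20 UMIs in the ependymal cells of a library, 82, 49 and 51 genes. This filter favours genes that are high in these cells, so the values are a description. The median log2 enrichment of these genes over all other cells was 6.65 in control, 6.57 in ULI and 5.68 in ULC. Over choroid plexus cells alone it was 2.07, 3.71 and 4.13. Control cells with 3 or 4 markers had a median of 1.41%, and those with 5 or 6 had 2.08%, whereas the medians in ULC were 2.24% and 1.88%.

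**Figure D2:**
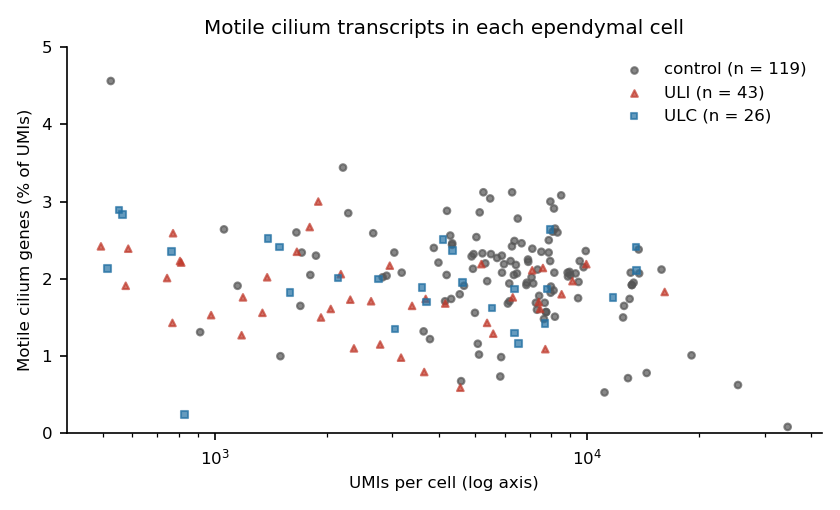
Share of UMIs from the 88 motile cilium genes in each ependymal cell (vertical axis, percent) against its UMIs (horizontal log axis), with control cells as grey circles, ULI cells as red triangles and ULC cells as blue squares. Most cells of the 3 libraries lie between 1% and 3%, and the control cells of 25394 and 34524 UMIs lie low at the right.

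In the comparisons between libraries, a gene was measured when the pair of libraries held at least 20 UMIs of it in ependymal cells, and it was called higher or lower when the CPM ratio was at least 2-fold with an exact 95% interval that left out equality. In ULI against control 7466 genes were measured with a median log2 ratio of -0.05, and 6.99% of them were called higher and 7.86% lower. In ULC against control 7436 genes were measured with a median of -0.06, and 10.1% were called higher and 6.21% lower. In ULI against ULC 3342 genes were measured with a median of 0.12, and 9.63% were called higher and 10.7% lower. These percentages are the background for each count of called list genes below. With edgeR's TMM factors in place of UMI totals the medians moved to -0.20, -0.28 and 0.18 and the split of the calls to 352 higher and 819 lower in ULI against control, 526 and 777 in ULC against control, and 379 and 340 in ULI against ULC, while with UMI totals it was 522 and 587, 750 and 462, and 322 and 358. The control library stands in the first 2 comparisons, so their results are not independent of each other.

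Of the motile cilium genes, 2 were higher and 8 lower of 82 measured in ULI against control, with a median of -0.10. Against control, ULC had 11 higher and 6 lower of 84, with a median of 0.04, and in ULI against ULC 5 were higher and 10 lower of 65, with a median of -0.12. The medians lay near those of all genes, and with TMM factors the ULC median turned to -0.18 and the ULI median was -0.25. Without the cells over 1% of another class's markers the counts were 2 and 9 of 82 in ULI against control, with a median of -0.29, and 10 and 9 of 84 in ULC against control, with a median of -0.16. Sums over the parts of the cilium given next include the marker genes that belong to them. Genes called within a list are named below also where they fall outside the rule for named genes, and those were chosen after their values were seen.

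The axonemal dynein arms, the motors of the beat, summed to 4872 CPM (4725 to 5023) in control, 4330 CPM (4015 to 4662) in ULI and 5288 CPM (4889 to 5710) in ULC over 25 genes. Dnah5, an outer arm heavy chain gene, stood at 431 CPM (388 to 478), 443 CPM (347 to 558) and 317 CPM (225 to 433), which gives overlapping intervals. The Dnali1 level, for an inner arm light chain, was 342, 259 and 512 CPM. Ccdc39, whose protein sets the spacing of dynein arms along the doublets, stood at 273 CPM (239 to 310), 406 CPM (314 to 517) and 520 CPM (400 to 664), and its ratios of 0.58 and 0.93 stayed under the 2-fold line. In ULC against control Dnah7b, Dnaic2 and Ccdc151 were called higher, and in ULI against control Dnah2 was called lower. Assembly factors, which build the arms in the cytoplasm, summed to 1256 CPM (1181 to 1333), 1263 CPM (1096 to 1448) and 1048 CPM (875 to 1245), and Wdr78, a dynein intermediate chain gene of this list, stood at 422, 542 and 171 CPM.

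Radial spoke and central pair genes summed to 5856 CPM (5695 to 6021) in control, 5475 CPM (5121 to 5847) in ULI and 5694 CPM (5280 to 6132) in ULC. Rsph4a, a spoke head gene, stood at 823 CPM (763 to 886), 560 CPM (451 to 688) and 512 CPM (393 to 655), and the log2 ratio was -0.55 (-0.89 to -0.24) in ULI and -0.69 (-1.08 to -0.31) in ULC, neither of them called. Cfap54, a central pair gene, stood at 819, 628 and 658 CPM. Cfap65 had 154 UMIs in 64 control cells, 6 in 5 ULI cells and 32 in 13 ULC cells, and its ratio was -2.29 (-3.76 to -1.14) in ULI against control, next to -0.35 in all other cells. Less the median over those of the 6 other classes with enough UMIs, the ULI ratio of Cfap65 was 0.25. Cfap65 was the 1 gene of this list called lower in ULI against control, where Rsph3b and Ak8 were called higher. Rsph3b has a close copy, Rsph3a, and reads can be split between them.

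Genes of the doublets and ciliary tip summed to 10977 CPM (10756 to 11202) in control, 10439 CPM (9948 to 10948) in ULI and 10852 CPM (10278 to 11450) in ULC. Cfap77, a gene of the doublet microtubules, had 323 CPM (286 to 364) in control, 67.7 CPM (33.8 to 121) in ULI and 56.9 CPM (22.9 to 117) in ULC. It was thus called lower in both UL libraries, at -2.25 (-3.27 to -1.39) and -2.51 (-3.84 to -1.45), while all other cells gave -0.98 and 0.48. Less the median over those of the 6 other classes with enough UMIs, however, the ULC ratio of Cfap77 was 0.11. Cfap45, whose protein lies inside the doublets, had 96 control UMIs, 4 in ULI and 43 in ULC, and was lower in ULI at -2.20 (-4.10 to -0.79) and higher in ULC at 1.63 (1.08 to 2.16). In ULI against control none of these genes was higher and 6 lower of 32 (median -0.18), and in ULC against control 4 were higher and 4 lower of 33 (median -0.02). These counts were 0 and 7 of 32 and 4 and 5 of 33 without the cells over 1% of another class's markers.

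Tekt1, a tektin gene of the doublets, and the tip gene Sntn went separate ways. Tekt1 stood at 78.8 CPM (61.0 to 100) in control, 30.8 CPM (10 to 71.9) in ULI and 772 CPM (624 to 943) in ULC, and its ratio in ULC against control was 3.29 (2.83 to 3.77), while in all other cells it was 4.97. Sntn, the sentan gene of the ciliary tip, stood at 342 CPM (304 to 384), 443 CPM (347 to 558) and 138 CPM (80.4 to 221), with a ratio of -1.31 (-2.11 to -0.60) in ULC against control. Fam183b stood at 500 CPM (453 to 550), 425 CPM (331 to 538) and 187 CPM (118 to 280), with a ratio of -1.42 (-2.09 to -0.81) in ULC against control and of -2.52 in all other cells. Tekt1 and Fam183b therefore moved in ULC in the same direction in ependymal cells as outside them. Ccdc151 did so as well, with 15, 2 and 13 UMIs and a ratio of 2.58 (1.39 to 3.75) next to 4.48.

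Because RFX factors bind motile cilium genes, promoter sequences of 300 bases (250 before to 50 after the start of the gene; RefSeq, build GRCm38.p6) were searched for GTTNCC followed by GGNAAC with a gap of 0 to 3 bases between them, an arrangement that reads the same on both strands. It was found in 3 of 70 motile cilium genes with a promoter (4.29%), in 3 of 25 intraflagellar transport and BBSome genes (12%) and in 159 of 15289 genes in all (1.04%). Of the 6 markers 4 had a promoter sequence, and none of these held it. The 3 motile cilium matches are shown because Ccdc151 and Fam183b were called between libraries and Ccdc96 was not. Capitals mark both motif parts with the gap, and each window runs 5′ to 3′ on the strand of its gene.
Ccdc151 promoter chr9:22002585-22002884, minus strand, match at -34 to -21 from the start: gcgggcgGTTTCCTTGGGAACgtgggcg
Ccdc96 promoter chr5:36484338-36484637, plus strand, match at 1 to 15: cgccctgGTTGCCCCGGGAAACctaacag
Fam183b promoter chr11:58801911-58802210, minus strand, match at -16 to -4: aacatccGTTGCCTGGAAACtgtagaa
The ependymal levels of the 3 genes did not follow a common pattern. Ccdc96, an axoneme gene, stood at 139 CPM (115 to 166) in control, 142 CPM (89.8 to 213) in ULI and 203 CPM (131 to 300) in ULC and was not called, Ccdc151 was higher and Fam183b lower in ULC. A match is a description of the letters and says nothing of binding.

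Intraflagellar transport and BBSome genes, which move cargo along the cilium and sort membrane proteins into it, summed to 4745 CPM (4600 to 4894) in control, 5358 CPM (5008 to 5726) in ULI and 4273 CPM (3915 to 4654) in ULC. In ULI against control none was called higher and 6 lower of 30 (median -0.10), and in ULC against control 1 was higher and 2 lower of 30 (median -0.19). They were 0 and 7, and 1 and 3, when the cells over 1% of another class's markers were left out. Kif3a, a motor subunit of the transport, stood at 335 CPM (297 to 376), 659 CPM (540 to 796) and 276 CPM (191 to 386). Its ratio in ULI against control was 0.98 (0.64 to 1.30), just under the 2-fold line, and in ULI against ULC it was 1.25 (0.69 to 1.86). Ift20 stood at 356, 585 and 431 CPM.

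The genes of multiciliated cell identity summed to 1687 CPM (1601 to 1777) in control, 1398 CPM (1222 to 1592) in ULI and 2697 CPM (2414 to 3003) in ULC. These sums contain Foxj1, a marker of the rule. In ULI against ULC Foxj1 was the only called gene of 6 measured, and the median was 0.01. Myb, a transcription factor gene of multiciliated cells, stood at 247 CPM (215 to 283), 246 CPM (176 to 335) and 236 CPM (158 to 338), so it did not differ beyond counting error. Rfx2, an RFX factor gene, stood at 125, 179 and 211 CPM, and Rfx3 at 142, 129 and 65.0 CPM. The Rfx4 gene of the same family was higher in both UL libraries, at 99.9, 222 and 227 CPM, with ratios of 1.15 (0.55 to 1.73) and 1.19 (0.52 to 1.82) and 0.65 and -0.30 in all other cells. Without cells that held 3 markers of another class the Rfx4 ratio in ULI against control was -0.35. Of planar polarity genes, which align the cilia, none was higher and 2 lower of 12 in ULI and none was called in ULC, and Fzd3, a receptor gene of the list, stood at 544, 493 and 406 CPM.

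Surface, junction and secreted genes summed to 41261 CPM (40830 to 41695) in control, 41042 CPM (40062 to 42039) in ULI and 32995 CPM (31988 to 34025) in ULC. This list contains Tmem212, a marker of the rule. In ULI against control 1 was higher and 6 lower of 31 (median -0.09), and in ULC against control 4 were higher and 4 lower of 31 (median -0.23). Leaving out the cells over 1% of another class's markers gave 1 and 5 of 30 in ULI (median -0.28) and 4 and 6 of 30 in ULC (median -0.37). Mia was lower in both, at 319, 86.2 and 114 CPM and ratios of -1.89 (-2.78 to -1.11) and -1.49 (-2.38 to -0.71). All other cells gave -1.34 and -0.16, and choroid plexus cells stood at 738, 76.7 and 49.5 CPM, so that less the choroid plexus ratio the Mia ratios turned to 1.38 and 2.41. Igfbp5, a gene of an insulin-like growth factor binding protein, was lower in both as well, at 383, 135 and 154 CPM and ratios of -1.5 (-2.19 to -0.88) and -1.31 (-2.06 to -0.65), although with at least 2 markers in place of 3 its ULC ratio was 1.45. Clu, the clusterin gene, stood at 1445 CPM in control, 647 CPM in ULI and 1657 CPM in ULC, with a ratio of -1.16 (-1.46 to -0.87) in ULI. Calml4 was lower in ULC, at 329, 166 and 81.2 CPM and a ratio of -2.02 (-3.09 to -1.12). All other cells gave 2.60, but the make-up of that pool differed between libraries. Choroid plexus cells were 0.868% of all control cells and 16.8% of all ULC cells, and their part in this ratio was not tested.

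Of ion, water and fluid transport genes none was higher and 5 lower of 19 in ULI against control (median -0.20), and 3 were higher and 2 lower of 19 in ULC against control (median 0.39). Without the cells over 1% of another class's markers the counts were 0 and 2 of 16 in ULI (median 0.01) and 5 and 2 of 17 in ULC (median 0.17). Aqp4, the water channel gene of ependyma and astrocytes, stood at 1579 CPM (1496 to 1666) in control, 1170 CPM (1010 to 1349) in ULI and 788 CPM (639 to 961) in ULC. Its ratio was -0.43 (-0.66 to -0.21) in ULI, which was not called, and -1.0 (-1.32 to -0.70) in ULC, where all other cells gave -1.08. Kcnj10, a potassium channel gene, stood at 597, 597 and 374 CPM. Tanycyte markers, of the ependyma-like cells of other ventricle walls, summed to 618 CPM (567 to 674), 542 CPM (435 to 668) and 601 CPM (472 to 755), against 71.9, 156 and 282 CPM in all other cells. Of 7 measured, 1 was higher and 2 lower in ULI against control, and 1 was higher and none lower in ULC against control.

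**Figure D3:**
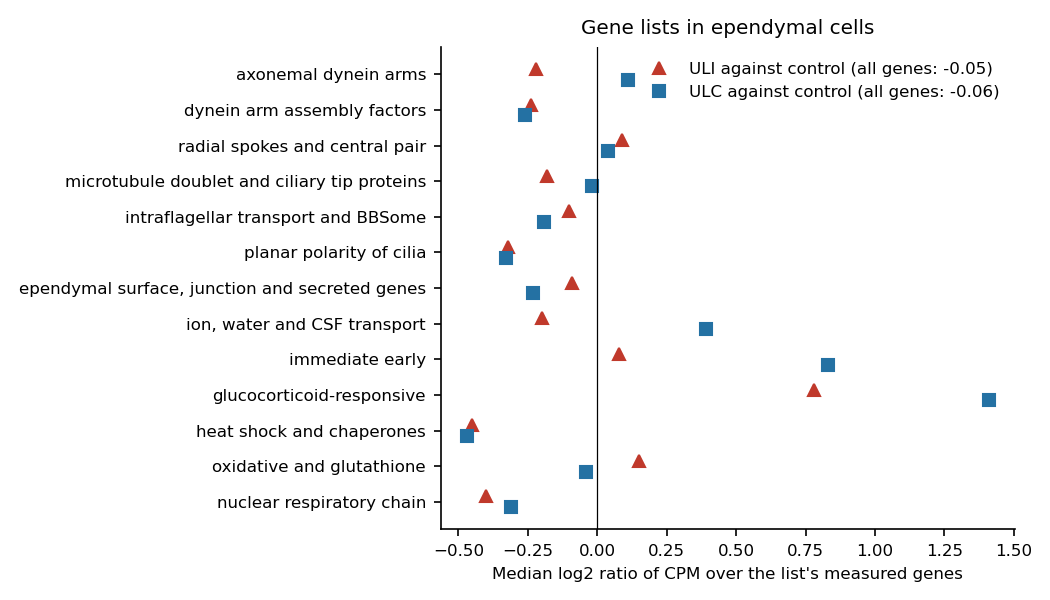
Median log2 CPM ratio over the measured genes of each plotted list in ependymal cells (horizontal axis) for ULI against control (red triangles) and ULC against control (blue squares), with a line at equal levels. The plot leaves out the markers of other cell types and some short lists. Among the lists plotted, glucocorticoid-responsive genes lie farthest to the right, at 0.78 and 1.41, and all genes have medians of -0.05 and -0.06.

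Immediate early genes, which cells transcribe within minutes of a stimulus and which also respond to tissue dissociation, summed to 6587 CPM (6416 to 6762) in control, 9577 CPM (9107 to 10065) in ULI and 10844 CPM (10270 to 11442) in ULC. In all other cells, a pool whose make-up differed between libraries, the sums were 7228, 6915 and 6820 CPM. The median cell gave 0.314%, 0.671% and 1.01% of its UMIs to these genes among ependymal cells. Among astrocyte-gated cells it was 0.0758%, 0.253% and 0.195%, and among choroid plexus cells 0.296%, 0.148% and 0.169%. In ULI against control 5 were higher and 2 lower of 22 (median 0.08), and in ULC against control 8 were higher and none lower of 23 (median 0.83). Without the cells over 1% of another class's markers these counts were 8 and 1 of 22 (median 0.20) and 10 and 0 of 23 (median 1.14), and with TMM factors the ULI median turned to -0.08 and the ULC median was 0.61.

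Fos, the best known gene of the list, stood at 1615 CPM (1531 to 1703) in control, 2981 CPM (2721 to 3259) in ULI and 3030 CPM (2730 to 3353) in ULC. Both UL intervals lay above the control interval, but the ratios of 0.88 (0.73 to 1.03) and 0.91 (0.74 to 1.07) were under 2-fold and all other cells gave 1.12 and 0.84. Egr1, a zinc finger factor gene, stood at 720 CPM (664 to 779), 1546 CPM (1360 to 1749) and 1316 CPM (1121 to 1535), and was higher in ULI at 1.10 (0.89 to 1.32), next to 0.07 elsewhere. Klf4, a Krüppel-like factor gene, stood at 194 CPM (166 to 226), 560 CPM (451 to 688) and 471 CPM (358 to 609). It was higher in both UL libraries, at 1.53 (1.15 to 1.91) and 1.28 (0.82 to 1.72), while all other cells gave -0.06 and -0.25. Choroid plexus cells gave -1.13 and -1.08 for Klf4, and with no limit on Ttr its ULC ratio in ependymal cells was -0.15.

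Maff, Fosl2 and Nr4a3 started from low control levels. Maff, a small Maf factor gene, stood at 49.4 CPM (35.6 to 66.7) in control, 253 CPM (181 to 343) in ULI and 162 CPM (99.2 to 251) in ULC, with ratios of 2.35 (1.70 to 3.01) and 1.72 (0.87 to 2.52) and 0.02 and 0.05 in all other cells. The AP-1 gene Fosl2 stood at 23.5 CPM (14.4 to 36.3), 105 CPM (61.0 to 168) and 154 CPM (92.9 to 241), with ratios of 2.15 (1.13 to 3.16) and 2.71 (1.73 to 3.70) and 0.65 and 0.78 elsewhere. Nr4a3, an orphan nuclear receptor gene, stood at 56.4 CPM (41.6 to 74.8), 363 CPM (277 to 469) and 171 CPM (106 to 261), with ratios of 2.69 (2.11 to 3.27) and 1.60 (0.78 to 2.36). For these 3 genes both UL intervals lay above the control interval. The cell with the most UMIs of the gene held 29.3% of the ULI UMIs of Maff, 35.3% of those of Fosl2 and 32.2% of those of Nr4a3.

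Other genes of the list moved in 1 UL library or in opposite directions. Nr4a1, the relative of Nr4a3, stood at 222, 92.4 and 544 CPM, lower in ULI at -1.27 (-2.13 to -0.51) and higher in ULC at 1.29 (0.87 to 1.70). Btg2, an antiproliferative gene, was lower in ULI at -1.24 (-2.49 to -0.21), but was 0.37 with at least 2 markers in place of 3. Fosb, an AP-1 gene, stood at 97.6, 55.4 and 902 CPM and was higher in ULC at 3.21 (2.78 to 3.64), next to 2.28 elsewhere. Klf6 was higher in ULC at 1.30 (0.89 to 1.70), and Egr2 was higher in ULI at 1.39 (0.51 to 2.22). With no limit on Ttr the ULC ratios of Nr4a1, Klf6 and Nr4a3 were -0.13, -0.01 and -0.20.

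**Figure D4:**
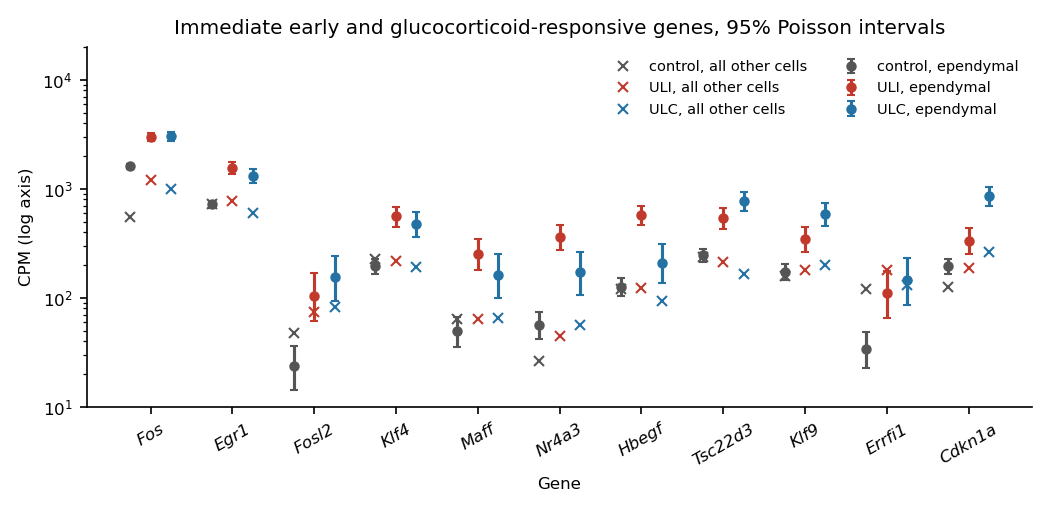
Levels of 11 genes in ependymal cells (points with 95% Poisson intervals) and in all other cells (crosses) of each library, in CPM on a log axis, with control in grey, ULI in red and ULC in blue. Klf4, Maff, Nr4a3 and Hbegf range from 49.4 to 194 CPM in control and from 253 to 573 CPM in ULI ependymal cells, while the crosses of Klf4, Maff and Hbegf lie close together.

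Glucocorticoid-responsive genes summed to 2701 CPM (2591 to 2813) in control, 2938 CPM (2680 to 3214) in ULI and 5190 CPM (4796 to 5609) in ULC. Of 10 measured in ULC against control 7 were higher and none lower (median 1.41), and in ULI against control 3 were higher and 1 lower of 11 (median 0.78). In all other cells the medians were 0.93 and 0.56. In ULI against ULC none was higher and 2 lower of 10 (median -0.81). Without the cells over 1% of another class's markers the counts were 7 and 0 of 10 in ULC and 3 and 1 of 11 in ULI. Without the cells that held 3 markers of another class they were 3 and 0 of 7 and 2 and 0 of 8.

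Tsc22d3, which codes for the glucocorticoid-induced leucine zipper, stood at 245 CPM (212 to 280) in control, 536 CPM (429 to 661) in ULI and 772 CPM (624 to 943) in ULC. Its ratios of 1.13 (0.75 to 1.5) and 1.66 (1.29 to 2.01) stood next to -0.16 and -0.54 in all other cells. Klf9, a glucocorticoid-induced factor gene, stood at 173 CPM (146 to 203), 345 CPM (261 to 448) and 585 CPM (458 to 737), and was called in ULC at 1.76 (1.33 to 2.18), next to 0.35. Cdkn1a, the p21 gene of cell cycle arrest, stood at 194 CPM (166 to 226), 333 CPM (250 to 434) and 853 CPM (698 to 1032), and was called in ULC at 2.14 (1.77 to 2.50), next to 1.07. All 3 genes were highest in ULC.

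Sgk1, a serum and glucocorticoid kinase gene, was higher in both UL libraries, at 61.1, 154 and 236 CPM and ratios of 1.33 (0.58 to 2.05) and 1.95 (1.24 to 2.63), while all other cells gave 1.51 and 1.09. Errfi1, an inhibitor gene of EGF receptor signalling, was higher in both as well, at 34.1, 111 and 146 CPM and ratios of 1.70 (0.77 to 2.60) and 2.10 (1.17 to 3.0), next to 0.56 and 0.12. Mt2, a metallothionein gene, was lower in ULI at -1.41 (-2.44 to -0.53). Mt3, its brain relative, stood at 531 CPM (484 to 583) in control, 191 CPM (130 to 271) in ULI and 3152 CPM (2846 to 3481) in ULC, against 9.04, 17.1 and 327 CPM in all other cells. The ULC to control ratio of Mt3 was 2.57 (2.37 to 2.77) in ependymal cells and 5.18 in the other cells.

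Heat shock and chaperone genes summed to 16481 CPM (16209 to 16756) in control, 13241 CPM (12687 to 13813) in ULI and 12542 CPM (11924 to 13183) in ULC. None was higher and 3 lower of 18 in each UL library against control, with medians of -0.45 and -0.47. Without the cells over 1% of another class's markers 1 was higher and 1 lower of 17 in each, with medians of -0.05 and -0.37. Hspa8, a constitutive chaperone gene, was lower in ULI at -1.70 (-2.23 to -1.22), next to -1.10 elsewhere. Hspa1a and Hspa1b, the stress-induced and nearly identical pair whose reads can be split by counting, were lower in ULC at -2.27 (-3.73 to -1.12) and -1.59 (-2.21 to -1.04). With at least 2 markers in place of 3 the Hspa1b ratio was 0.14.

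Nuclear genes of the respiratory chain summed to 8832 CPM (8633 to 9034) in control, 7544 CPM (7128 to 7979) in ULI and 7985 CPM (7493 to 8500) in ULC. None was higher and 11 lower of 40 in ULI (median -0.40), and 2 were higher and 9 lower of 40 in ULC (median -0.31). Uqcrh, a complex III gene, stood at 511, 641 and 487 CPM, and Cox6c, a complex IV gene, at 696, 554 and 455 CPM, and neither was called. With at least 50 UMIs 9 of 32 were still lower in ULI, and 2 were higher and 8 lower of 32 in ULC. The counts were 0 and 9 of 38, and 2 and 8 of 39, without the cells over 1% of another class's markers. Mitochondrially encoded genes summed to 64336 CPM (63798 to 64878), 58409 CPM (57239 to 59597) and 47835 CPM (46621 to 49073), with medians of -0.22 and -0.46.

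The remaining lists were short. Of interferon and antigen presentation genes 1 was higher and 1 lower of 9 in ULI and none higher and 1 lower of 8 in ULC. Of reactive glia genes 1 was higher and 2 lower of 9 and 2 higher and 1 lower of 10. Leaving out the doubted cells gave 0 and 1 of 8, and 1 and 0 of 8. Gfap, the intermediate filament gene of reactive glia, was lower in both UL libraries, at 205, 37.0 and 48.7 CPM with 6 UMIs in each UL library. With the doubted cells over 1% left out the Gfap ratio in ULC was 0.02, against -2.07 (-3.54 to -0.92) with them. Vim, another filament gene, stood at 1410 CPM (1331 to 1492) in control, 2667 CPM (2421 to 2930) in ULI and 1462 CPM (1256 to 1692) in ULC, and its ULI ratio of 0.92 (0.76 to 1.08) was not called. Of oxidative and glutathione genes none was higher and 2 lower of 18 in ULI, and 1 higher and 1 lower of 18 in ULC. Cell cycle genes summed to 221 CPM (191 to 255), 314 CPM (234 to 413) and 674 CPM (537 to 836), and Top2a, the topoisomerase gene of dividing cells, had 33 UMIs in 3 ULC cells, 16 in 2 control cells and 6 in 2 ULI cells. Of 5 cell cycle genes measured, Top2a and Cenpf, a kinetochore gene, were higher in ULC, at 3.83 (2.93 to 4.79) and 2.05 (0.89 to 3.15), and Cenpf was higher in ULI at 1.39 (0.13 to 2.55). Without the 5% of cells with the most UMIs only Top2a was called in ULC, at 2.24, and none in ULI. Hox genes of the hindbrain summed to 35.3 CPM (23.8 to 50.4), 67.7 CPM (33.8 to 121) and 73.1 CPM (33.4 to 139), and markers of neurons that contact the cerebrospinal fluid to 5.88, 18.5 and 8.12 CPM.

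The 10 highest ratios of ULI against control, outside other cell types' markers, included Nr4a3, Maff and Hbegf. Hbegf, which codes for heparin-binding EGF-like growth factor, stood at 126 CPM (103 to 152) in control, 573 CPM (462 to 702) in ULI and 211 CPM (138 to 309) in ULC, and its ratio of 2.19 (1.77 to 2.60) stood next to 0.04 in all other cells. Emp1, a membrane protein gene, gave 1.90 (1.20 to 2.58), next to 0.57 in all other cells and 6.15 in the 1 other class that held enough UMIs of it. Irs2, an insulin receptor substrate gene, gave 1.88 (1.30 to 2.45) and Ifrd1, a transcriptional regulator gene, 1.93 (1.16 to 2.69). Etnppl, an enzyme gene of phosphoethanolamine breakdown, was higher in both UL libraries, with ratios of 2.49 (1.68 to 3.30) and 2.62 (1.76 to 3.47), where all other cells gave 1.53 and 1.24. Ctnnd2, Memo1 and Uhrf1bp1l completed this group at 1.97, 1.96 and 1.94. These genes had between 22 and 93 UMIs in ULI, and the cell with the most held up to 37.7% of a gene.

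The lowest ratios of ULI against control were genes at 1 to 4 ULI UMIs. Mycbpap, with 95 control UMIs in 47 cells and 1 in ULI, gave -4.18 (-9.50 to -1.67). Cyhr1 gave -4.09 (-9.41 to -1.57), Gm10250 gave -3.97 (-9.29 to -1.45) and Dynlrb1, a dynein light chain gene, gave -3.95 (-9.27 to -1.43), each also with 1 ULI UMI. Gm10250 is annotated as a processed pseudogene, and its reads may be shared with a parent gene. Trf, Apod, Tubb4a, Ugt8a and Aplp1, which oligodendrocytes express, gave -5.54, -4.83, -4.34, -4.21 and -4.12, and Dcaf17 gave -3.95. For each of these last 6 genes 1 control cell held 56.2% or more of the control UMIs.

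Oligodendrocyte markers were the largest signal of another cell type in control ependymal cells. Their sum in ependymal cells was 10573 CPM (10356 to 10794) in control, 801 CPM (669 to 951) in ULI and 3103 CPM (2800 to 3430) in ULC, against 95625, 61663 and 46906 CPM in all other cells. All 9 were lower in ULI (median -3.78) and 6 of 9 in ULC (median -2.60). Without cells over 1% of another class's markers 4 of 7 were lower in ULI (median -1.39) and none of 7 in ULC (median -0.69). Without cells that held 3 markers of another class 3 of 5 were lower in ULI (median -1.41) and 1 of 5 in ULC (median -0.63). Without the 5% of cells with the most UMIs 3 of 7 were lower in ULI (median -1.29), whereas in ULC 3 of 7 were higher (median 0.56).

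Other classes left smaller signals. Microglia markers summed to 208 CPM (179 to 241), 37.0 CPM (13.6 to 80.4) and 40.6 CPM (13.2 to 94.8), and choroid plexus markers to 4651 CPM (4507 to 4798), 3141 CPM (2874 to 3426) and 5012 CPM (4624 to 5423). Astrocyte markers summed to 2975 CPM (2860 to 3093), 2525 CPM (2287 to 2782) and 1771 CPM (1543 to 2022), which ependymal cells express themselves in part. Neuron markers summed to 79.9 CPM (62.1 to 101), 271 CPM (197 to 364) and 81.2 CPM (39.0 to 149). Endothelial markers summed to 327 CPM (290 to 368), 148 CPM (94.7 to 220) and 211 CPM (138 to 309). Mural and fibroblast markers summed to 160 CPM (134 to 189), 591 CPM (479 to 722) and 138 CPM (80.4 to 221), and 1 ULI cell held 93.4% of the ULI UMIs of Rgs5, a pericyte gene. Blood markers had 0, 1 and 0 UMIs.

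The genes named here from the highest ratios of ULC against control were also high in all other cells. Gnb2, a G protein subunit gene, gave 3.93 (3.13 to 4.77) in ependymal cells and 3.80 in all other cells. Pltp, the phospholipid transfer protein gene, gave 3.68 (2.97 to 4.41) and 3.38, and Gpx4-ps2, a pseudogene whose reads may be shared with its parent gene, gave 3.69 (3.25 to 4.14) and 4.79. Ubxn11 gave 3.60 (2.92 to 4.31) and 4.95, Lamp1, a lysosomal membrane gene, 3.07 (2.54 to 3.61) and 2.38, and 9530068E07Rik 3.44 (2.86 to 4.03) and 2.49. P4hb, a protein folding enzyme gene, gave 3.16 (2.48 to 3.85) and 1.76, and Eno1, a glycolysis gene, 2.94 (2.14 to 3.75) and 2.89. Of the genes called in ULC against control, 300 of the 750 higher and 82 of the 462 lower were called in the same direction in all other cells. In ULI against control these were 72 of 522 and 144 of 587. The shares of all measured genes called in the other cells are not given, so these counts have no background.

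At the low end of ULC against control stood genes with 1 ULC UMI. Gyg, the glycogenin gene, gave -4.06 (-9.37 to -1.55), Vma21, a proton pump assembly gene, -3.93 (-9.24 to -1.42) and Lxn -3.67 (-8.99 to -1.16). Rtl8b gave -3.67 (-8.99 to -1.16) and Suco -3.64 (-8.96 to -1.12). The intervals of these genes are wide, since the 123110 ependymal UMIs of ULC cannot set a low level closely.

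**Figure D5:**
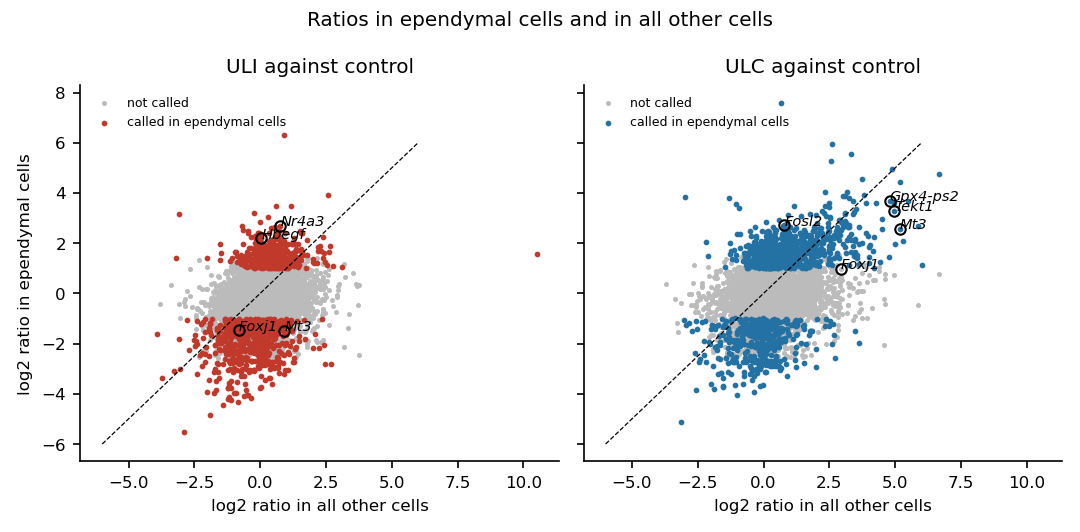
Log2 ratio of CPM in ependymal cells (vertical axis) against the ratio in all other cells of the same libraries (horizontal axis) for measured genes, with ULI against control at left, ULC against control at right, called genes in colour and a dashed line at equal ratios. Hbegf and Nr4a3 lie high at left near 0 on the horizontal axis, and Gpx4-ps2, Tekt1 and Mt3 lie at right under the line, with 4.79, 4.97 and 5.18 in the other cells.

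In ULI against ULC, the comparison of the sides after UL, several of the lowest genes were also lower in all other cells. Gpx4-ps2 gave -5.37 (-7.26 to -3.97) in ependymal cells and -5.65 in all other cells, Tekt1 -4.65 (-6.30 to -3.37) and -4.83, Ubxn11 -4.49 (-6.81 to -2.86) and -6.22, and Mt3 -4.05 (-4.62 to -3.52) and -4.26. Pltp had no ULI UMI and 50 in ULC, which gives -4.46 at a floor of 3 counts and is a bound. Lamp1 gave -4.14 (-5.81 to -2.85), 9530068E07Rik -4.12 (-5.79 to -2.83), Pfdn5, a prefoldin gene, -4.10 (-6.03 to -2.66), Fosb -4.02 (-5.19 to -3.05) and Gnai2, a G protein gene, -3.65 (-5.15 to -2.44). Of the 358 lower genes 201 were called lower in all other cells as well, a count that likewise has no background share beside it.

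Of the 322 genes called higher in ULI against ULC, 2 were called higher in all other cells as well. The share of all measured genes called higher there is not given, so the count cannot be read as a trait of ependyma. Uqcrb, a complex III gene, gave 2.77 (1.44 to 4.46) and 0.18 in all other cells, Ttc8, a BBSome gene, 2.72 (1.59 to 4.10) and 0.09, and Tcf12, a helix-loop-helix factor gene, 2.63 (1.41 to 4.14) and 0.49. Efcab10 gave 2.36 (1.59 to 3.21) and -1.46, Snrpert 2.25 (1.09 to 3.65) and 0.76, and Atpif1, the inhibitor gene of the ATP synthase, 2.17 (1.34 to 3.10) and 0.62. Snrpert is annotated as a processed pseudogene, and its reads may be shared with a parent gene. Dner, Bex3, Acot6 and Ndufb10 gave 1.99, 1.94, 1.92 and 1.89. These genes had 5 to 18 ULC UMIs, and Sntn and Fam183b of the cilium list stood with them at 1.68 (0.91 to 2.54) and 1.19 (0.49 to 1.93). Summed lists differed between the sides as well. Lower in ULI than in ULC was the sum of glucocorticoid-responsive genes at -0.82 (-1.0 to -0.65), with a ratio above 0 in 0 of 10 genes. The sum of metallothioneins, which holds Mt3, was lower at -1.96 (-2.19 to -1.74). The sum of multiciliated cell identity gave -0.95 (-1.20 to -0.70), but it holds Foxj1, a marker of the rule and its only called gene. The median over its 6 measured genes was 0.01. The sum of surface, junction and secreted genes, which contains the marker Tmem212, was higher at 0.31 (0.26 to 0.37). Of its 27 measured genes 2 were called higher and 5 lower, and their median of 0.12 equalled that of all genes. The motile cilium sum gave -0.16 (-0.23 to -0.08).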

How the data were processed

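Single-cell RNA-seq UMI counts of the MVN were analysed for 3 libraries, control, ULI and ULC, of 1 sample each. The authors deposited a table of raw UMI counts per gene and cell. Per the labels, reads were processed with CASAVA 1.8, UMI-tools and Seurat on mm10, while aligner, annotation and cell calling were not given in the sources used here. The labels and the methods name different capture platforms (BD Rhapsody, Drop-seq and 10X), which could not be settled.

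Cells with at least 200 genes were kept. Cells of 6 other classes were gated by at least 3 of their markers, with Ttr at 5% or more for the choroid plexus. UMIs were summed over ependymal cells of a library and divided by their total (CPM). Ratios had exact conditional binomial intervals, CPM exact Poisson and shares exact Clopper-Pearson intervals, at 95%, and all cover counting error only. Where a library had no UMI, its level was set at a floor of 3 counts. Genes with at least 20 UMIs in a pair of libraries were measured. Cells with at least 1000 UMIs were thinned to 1000 UMIs with a fixed seed, and shallower cells were left out. The ratio and interval code was tested on simulated data.

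Of 524 listed genes 520 matched the table. The members and lists were chosen with earlier results of these data known. Named genes were the 6 markers and Ttr, the 10 highest and 10 lowest called ratios of each comparison with at least 50 UMIs outside marker lists of other cell types and mitochondrial and ribosomal genes, up to 4 genes of each list with the most UMIs, and the 20 most enriched genes. Called genes of a list outside this rule were chosen after their values were seen. Some genes that met the rule are not reported here. Alternatives changed the rule for cells, the scaling, the depth, the filter on low counts and the subtraction of other cells. Python 3.11.15, numpy 2.4.6, scipy 1.17.1, pandas 2.3.3, matplotlib 3.10.9 and R 4.3.3 were used, and edgeR 4.0.16 and DESeq2 1.42.0 gave scaling factors only.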

Additional observations from a re-analysis of the deposited data

Results flagged for a closer look

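Bex3, a gene of the brain-expressed X-linked family, differed in direction between ependymal cells and astrocyte-gated cells. In ULC against control its log2 ratio was -1.09 in ependymal cells and 1.35 in astrocyte-gated cells, a difference of -2.44. In ULI against ULC it was 1.94 in ependymal cells and -1.57 in astrocyte-gated cells, a difference of 3.51. With 1 library per group the difference was not tested, and the ependymal ratios rested on 18 UMIs in 10 ULC cells.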

How the results depend on the processing

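No paired analysis was possible because each group was 1 library, and for the same reason no replicate could be left out. Among 109 named gene results under 1854 alternative values, 1689 kept direction and side of the threshold, 130 kept direction only and 35 reversed. Alternatives under which the gene was no longer measured were not counted. The settings of the filter on low counts could not alter a ratio or a call, so they added only to the 1689, which is no measure of stability. Where no construction is given the cause was not tested. Leaving out cells over 1% of another class's markers, and reading markers after thinning, were chosen after the data were seen. Shares moved to 0.936% in ULC with at least 500 genes per cell, 1.21% in ULC with no limit on Ttr, 0.582% in ULI with at least 4 markers, and 1.19% in control and 0.603% in ULI without cells with 3 markers of another class.

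Called genes of ULI against control, 1109 in the report, were 676 with at least 50 UMIs and 186 after thinning to 1000 UMIs, where fewer genes were measured, and 624 without cells with 3 markers of another class, with fewer cells. For ULC against control, 1212 in the report, they were 736, 126 and 612 under the same settings, 1910 with no filter on low counts and 2992 with no limit on Ttr. For ULI against ULC, 680 in the report, they were 200, 76 and 375, then 1536 and 2073, and 1291 with at least 2 markers.

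With at least 2 markers, Btg2 in ULI against control was 0.37, and in ULC against control Igfbp5 was 1.45 and Hspa1b 0.14. With no limit on Ttr, which admits choroid plexus cells, ULC against control gave -0.13 for Nr4a1, -0.15 for Klf4, -0.01 for Klf6, -0.58 for Rfx4 and -0.20 for Nr4a3, and ULI against ULC -0.05 for Ndufb10. Without cells with 3 markers of another class, ULI against control gave -0.35 for Rfx4. Without cells over 1% of another class's markers Gfap was 0.02 in ULC against control.

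Less the ratio in all other cells, Sgk1 was -0.18 in ULI against control. In ULC against control Mt3 was -2.61, Tekt1 -1.68, Ubxn11 -1.35, Gpx4-ps2 -1.10, Aqp4 0.07, Fam183b 1.10 and Ccdc151 -1.90. In ULI against ULC Fam183b was -0.87, Tekt1 0.18, Gpx4-ps2 0.28, Mt3 0.21, Pltp 0.16 and Ubxn11 1.74. Less the median over the 6 other classes, ULI against control gave -4.25 for Emp1, 0.25 for Cfap65, 1.38 for Mia and 0.05 for Gfap, and ULC against control -0.51 for Mt3, -1.04 for Gpx4-ps2, 2.41 for Mia, 1.0 for Aqp4, 0.11 for Cfap77 and 4.70 for Fam183b. Low levels in ULC rested on 26 ependymal cells.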
